A study of Mus musculus with 12 samples.

Results

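The 10 genes described here are Lcn2, Hif3a, Fkbp5, Sgk1, Tsc22d3, Zbtb16, Pdk4, Cdkn1a, Mt1 and Mt2, which are known as targets of glucocorticoids or of other stress signals, and they are 10 of the 19312 genes in the table. They were found by their symbols, and all 10 were present. Hif3a and Lcn2 were chosen on their measured rise in these mice, so their values are given as a description with no test, and the counts of called genes below are over the other 8. These 8 and the gene lists below were also chosen with earlier results of these data known, which limits their p-values and counts. The values come from RNA-Seq of 12 male C57BL/6N mice at postnatal day 25, 3 in each of 4 groups. WT-Veh and WT-Mem mice were wild type, and KO-Veh and KO-Mem mice were homozygous for a deletion of exons 6 to 7 of Shank2, which encodes a scaffold protein of excitatory synapses. From postnatal day 7 to 21 the Mem groups were given memantine, an uncompetitive NMDA receptor antagonist, by mouth at 20 mg/kg in 2 doses per day, and the Veh groups were given the 0.1% saccharin solution alone, so no mouse went without oral dosing. The deletion is present in all cells from conception, each value comes from 1 mouse, and neither the litter of a mouse nor the hour at which tissue was taken is given in the sources used here. P-values measure the spread between these mice, some of which may have shared a cage or a mother.

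Glucocorticoids are adrenal steroids that rise with stress and with the daily rhythm, enter cells and bind the glucocorticoid receptor, which then binds DNA and raises transcription of its targets. In the brain such targets include Fkbp5, a co-chaperone that lowers the affinity of the receptor for its hormone and so closes a feedback loop, the kinase Sgk1, the anti-inflammatory factor Tsc22d3 (also called GILZ) and the zinc finger factor Zbtb16. Other stress signals share some of these genes: Pdk4 and Hif3a also respond to fasting or low oxygen, Cdkn1a to p53, Lcn2 to inflammatory cytokines, and Mt1 and Mt2 to zinc and other metals.

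The values of Shank2 were 7427 to 8325 normalized counts in WT-Veh mice, 7156 to 8548 in WT-Mem mice, 2723 to 3053 in KO-Veh mice and 2706 to 3178 in KO-Mem mice, so every mouse matched its labelled genotype. A normalized count is an estimated read count divided by the authors' normalization factors, so the sums per mouse (30373849 to 31199251) are not depths. Judged from the lowest non-zero values, the depth of a mouse relative to the mean of the 12 was 0.890 to 1.15. This is a rough guide only. It rests on 25 to 59 values per mouse below a fixed limit, which narrows the range it can give, and estimated reads can be fractional. The study's methods name the forebrain without cerebellum, whereas the labels give whole brain. The summed value of 8 forebrain markers was 23427 to 25883 in all 12 mice, and that of 5 cerebellum markers was 66.5 to 211 in 11 mice and 1615 in KO-Veh replicate 3, which therefore stood apart. KO-Mem replicate 3 stood apart in neutrophil markers and KO-Mem replicate 1 in the members themselves, as given below.

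Promoter windows of 300 bases (250 before and 50 after an annotated start) were found in RefSeq on GRCm38.p6 for 9 of the 10 members, 17 windows in all, and none was found for Zbtb16. The windows below are shown because they hold, or for Fkbp5 lack, letters bound by the factors that answer glucocorticoids or metals. They read 5′ to 3′ on the strand of the gene. Capitals mark the full palindromic glucocorticoid site in the Sgk1 window at chr10:21993640-21993939 (plus strand), the E-box CACGTG in the Fkbp5 window at chr17:28486100-28486399 (minus strand), and the metal response cores in the Mt2 window at chr8:94172368-94172667 and the Mt1 window at chr8:94178839-94179138 (both plus strand).
Sgk1: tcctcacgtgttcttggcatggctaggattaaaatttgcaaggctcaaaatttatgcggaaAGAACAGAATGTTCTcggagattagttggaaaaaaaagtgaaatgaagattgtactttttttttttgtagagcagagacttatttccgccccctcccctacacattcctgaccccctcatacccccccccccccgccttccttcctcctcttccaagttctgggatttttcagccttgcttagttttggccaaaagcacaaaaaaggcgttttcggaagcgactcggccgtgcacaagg
Fkbp5: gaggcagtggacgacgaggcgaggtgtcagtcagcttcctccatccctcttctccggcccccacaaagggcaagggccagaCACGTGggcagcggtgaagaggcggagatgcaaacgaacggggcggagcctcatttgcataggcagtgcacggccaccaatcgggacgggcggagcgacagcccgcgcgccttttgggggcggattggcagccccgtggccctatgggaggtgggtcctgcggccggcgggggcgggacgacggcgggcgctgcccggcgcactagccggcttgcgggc
Mt2: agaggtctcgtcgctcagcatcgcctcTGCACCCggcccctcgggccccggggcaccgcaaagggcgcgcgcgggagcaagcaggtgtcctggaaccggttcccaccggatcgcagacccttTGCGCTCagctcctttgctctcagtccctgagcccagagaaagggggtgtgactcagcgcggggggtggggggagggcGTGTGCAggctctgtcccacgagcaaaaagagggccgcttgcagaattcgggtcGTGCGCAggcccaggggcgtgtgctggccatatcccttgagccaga
Mt1: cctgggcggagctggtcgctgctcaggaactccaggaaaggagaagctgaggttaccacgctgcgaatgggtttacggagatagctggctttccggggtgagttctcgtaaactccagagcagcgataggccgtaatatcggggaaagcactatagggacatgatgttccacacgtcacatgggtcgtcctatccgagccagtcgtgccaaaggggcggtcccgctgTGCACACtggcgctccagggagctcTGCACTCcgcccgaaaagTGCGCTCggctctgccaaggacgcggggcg
The full site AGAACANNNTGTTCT begins 189 bases before this start of Sgk1 and is present in 3 of 32851 promoter windows (0.00913%), the others belonging to Acnat2 and Gm35041. Its half-site TGTTCT, searched on both strands like all motifs here, is present in 19.0% of windows. Among members it was found in 3 of the 6 windows of Sgk1, where the full site accounts for 2 of the matches, and in 1 of the 3 windows of Tsc22d3. The Fkbp5 window holds no half-site, and its E-box, which contains the hypoxia core ACGTG on both strands, is present in 7.15% of windows. The Sgk1 window shown above holds the same E-box, left in lower case there, beginning 246 bases before its start. The Mt1 window holds 1 hypoxia core, 79 bases before its start, so neither motif is particular to Fkbp5 among the members. The metal response cores TGCGCNC and TGCACNC together number 4 in the Mt2 window and 3 in the Mt1 window, whereas 0.517% of all windows hold 4 or more and 1.97% hold 3 or more. A match describes the letters of a window only, and glucocorticoid receptor sites outside these windows were not searched.

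Divided by exon length in kilobases, normalized counts in WT-Veh mice were highest for the metallothioneins, small cysteine-rich proteins that bind zinc and copper. Mt1 stood at 3939 ± 520 per kb (SD, n = 3) and Mt2 at 3544 ± 694 per kb, which differ by less than their spread. The exon length of Mt1, 1246 bases, covers its whole annotated span, whereas that of Mt2 is 588 bases. Undivided, their WT-Veh means were 4908 and 2084 normalized counts, so the likeness of the 2 levels per kb depends on these lengths. Tsc22d3 followed at 471 ± 119 per kb, then Sgk1 at 283 ± 28.3 and Zbtb16 at 207 ± 38.9. Fkbp5 at 114 ± 17.5 per kb and Cdkn1a at 106 ± 9.15 per kb did not differ beyond their spread. Pdk4 stood at 67.2 ± 5.99 per kb, Hif3a at 22.1 ± 10.6 and Lcn2 at 3.23 ± 0.643. In KO-Mem mice the order changed in the middle: Sgk1 (370 ± 81.0 per kb) was beside Tsc22d3 (337 ± 55.7), closer than their spread. Fkbp5 (260 ± 82.3 per kb), Zbtb16 (220 ± 40.2) and Cdkn1a (189 ± 79.9) followed, with each closer to the next than their spread. Hif3a (97.4 ± 84.3 per kb) then stood beside Pdk4 (48.2 ± 3.87), and Lcn2 was again the lowest at 17.8 ± 0.760 per kb. The exon length joins all annotated exons of a gene, so these levels are approximate.

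**Figure D1:**
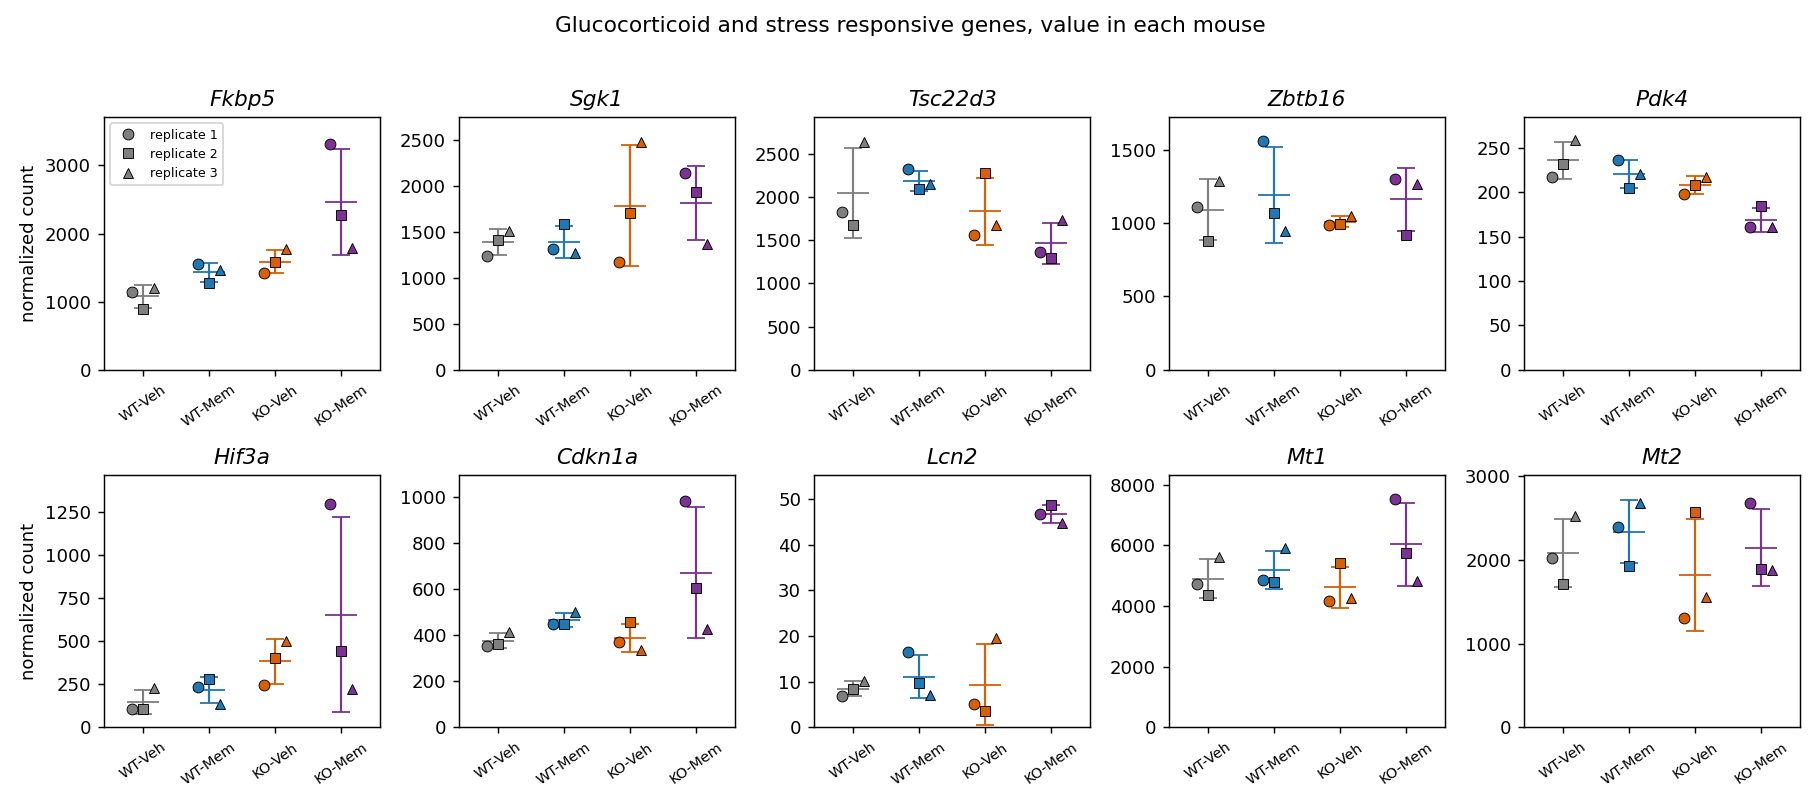
Normalized counts (vertical axis, linear from 0) of each of the 10 members in the 4 groups. Symbols are single mice by replicate number, the horizontal line is the mean and the bar 1 SD (n = 3); Fkbp5 is lowest in the 3 WT-Veh mice, Pdk4 lowest in the 3 KO-Mem mice, and Lcn2 is 44.8 to 48.8 in KO-Mem mice and at most 19.5 elsewhere.

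Fkbp5 (chr17:28399094-28517527, minus strand) was the member with the clearest differences between the groups. It stood at 1147, 888 and 1196 normalized counts in WT-Veh mice, at 1551, 1280 and 1469 in WT-Mem mice, at 1422, 1578 and 1770 in KO-Veh mice, and at 3313, 2269 and 1790 in KO-Mem mice. The WT-Veh mice lay below every other mouse, the WT-Mem and KO-Veh mice overlapped, and the KO-Mem mice lay above every other mouse. Averaged over both treatments, Fkbp5 was 1.57-fold higher in KO than in WT mice (log2 0.65, SE 0.12, adjusted p = 0.0090 by limma, which fits all genes with moderated variances, with Benjamini-Hochberg adjustment over 17655 genes). Over these 12 mice 10.8% of the genes tested passed. An exact two-sided permutation test within treatment gave p = 0.005, the smallest its 400 arrangements allow (1 of 16 such tests). All exact permutation p-values here and below are unadjusted, unlike the limma adjusted p beside them. The KO-Mem against WT-Veh difference was 2.23-fold (log2 1.15, SE 0.19, limma adjusted p = 0.0272, 3.37% of 17662 genes passing). That call was lost when any of WT-Veh replicates 1, 2 and 3 or KO-Mem replicates 1 and 2 was left out (adjusted p 0.0531 to 0.124) and was kept without KO-Mem replicate 3 (adjusted p = 0.0022), with adjusted p from 0.0022 to 0.146 over all alternatives.

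The separate Fkbp5 comparisons did not pass the threshold although their groups did not overlap. KO-Veh mice were 1.48-fold above WT-Veh mice (log2 0.57, 95% interval 0.30 to 0.83, limma adjusted p = 0.135), and KO-Mem mice were 1.66-fold above WT-Mem mice (log2 0.73, 0.33 to 1.14, adjusted p = 0.0970). Memantine against vehicle gave a log2 difference of 0.42 in WT mice (0.15 to 0.69, limma adjusted p = 0.978) and of 0.59 in KO mice (0.16 to 1.01, adjusted p = 0.554). Over both genotypes the memantine difference was 0.50 (log2, SE 0.12, limma adjusted p = 0.374), and the exact permutation test within genotype gave an unadjusted p = 0.005. The direction was upward in both genotypes, and the difference between the memantine effects was 0.17 (log2, interval -0.37 to 0.70, adjusted p = 0.957), so neither equal nor unequal effects were shown.

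Sgk1 (chr10:21882184-21999903, plus strand) encodes a kinase that raises the activity of ion channels and transporters. It stood at 1239, 1411 and 1513 normalized counts in WT-Veh mice, at 1310, 1587 and 1267 in WT-Mem mice, at 1170, 1702 and 2475 in KO-Veh mice, and at 2135, 1933 and 1369 in KO-Mem mice. All 4 groups overlapped, and the WT mice spanned a narrower range than the KO mice. The KO against WT difference over both treatments was 0.33 (log2, SE 0.15, limma adjusted p = 0.145, exact permutation p = 0.105). The highest value was in KO-Veh replicate 3, the mouse with cerebellum markers at 1615, and without it the KO-Veh mean was 1436 in place of 1782; the part of those markers in the value was not tested. The memantine difference was 0.03 (log2, interval -0.28 to 0.34).

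Tsc22d3 (chrX:140539528-140600659, minus strand) encodes a leucine zipper protein that mediates part of the anti-inflammatory action of glucocorticoids. Its values were 1821, 1678 and 2634 normalized counts in WT-Veh mice, 2318, 2090 and 2146 in WT-Mem mice, 1553, 2274 and 1671 in KO-Veh mice, and 1359, 1287 and 1737 in KO-Mem mice. The KO-Mem mice lay below all WT-Mem mice, opposite in direction to Fkbp5. That difference was -0.59 (log2, SE 0.11, limma adjusted p = 0.0884), and over both treatments the KO against WT difference was -0.37 (SE 0.13, adjusted p = 0.0704, exact permutation p = 0.06), neither of which passed. Without KO-Mem replicate 3 the Mem-K/W difference passed (log2 -0.72, adjusted p = 0.0020), against 0.0020 to 0.292 over its alternatives. The difference of the memantine effects between genotypes was -0.44 (log2, interval -0.94 to 0.06, adjusted p = 0.947).

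Zbtb16 (chr9:48654297-48836222, minus strand) encodes the transcription factor PLZF. Its values were 1112, 877 and 1286 normalized counts in WT-Veh mice, 1559, 1070 and 943 in WT-Mem mice, 983, 991 and 1050 in KO-Veh mice, and 1300, 916 and 1264 in KO-Mem mice. The 4 groups overlapped. The KO against WT difference over both treatments was -0.06 (log2, interval -0.32 to 0.20) and the memantine difference was 0.15 (interval -0.11 to 0.41), with limma adjusted p of 0.780 and 0.748.

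Pdk4 (chr6:5483351-5496309, minus strand) encodes a kinase that shuts off the pyruvate dehydrogenase complex and turns fuel use from glucose to fat. It stood at 217, 233 and 259 normalized counts in WT-Veh mice, at 236, 205 and 221 in WT-Mem mice, at 198, 209 and 218 in KO-Veh mice, and at 162, 185 and 161 in KO-Mem mice. The KO-Mem mice lay below the 9 other mice, while the other groups overlapped. Pdk4 fell by 0.28 on the log2 scale in KO against WT mice over both treatments (SE 0.08, limma adjusted p = 0.0439, exact permutation p = 0.01). This call was lost when any mouse other than WT-Veh replicate 1 or KO-Veh replicate 2 was left out, and adjusted p ranged from 0.0332 to 0.0989 over all alternatives. In the Mem-K/W comparison the difference was -0.38 (log2, SE 0.13, limma adjusted p = 0.150), and over both genotypes the memantine difference was -0.20 (SE 0.08, adjusted p = 0.536, exact permutation p = 0.03). Endothelial markers were also lower in KO mice: the summed value of 10 markers was 9933 to 11395 in WT mice and 8490 to 9448 in KO mice. Over both treatments 6 of the 10 were called lower, where 10.8% of all genes were called in either direction. Between the KO groups, where Pdk4 did not overlap, these sums did, at 9104 to 9296 in KO-Veh and 8490 to 9448 in KO-Mem mice. Oligodendrocyte markers were lower in both contrasts, with median log2 of -0.29 by genotype and -0.28 for memantine in KO mice. Markers of other cells were also lower in KO mice, as given below. In bulk tissue, fewer cells of a type and less RNA per cell cannot be told apart, and the part of any of these cells in the Pdk4 difference was not tested.

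**Figure D2:**
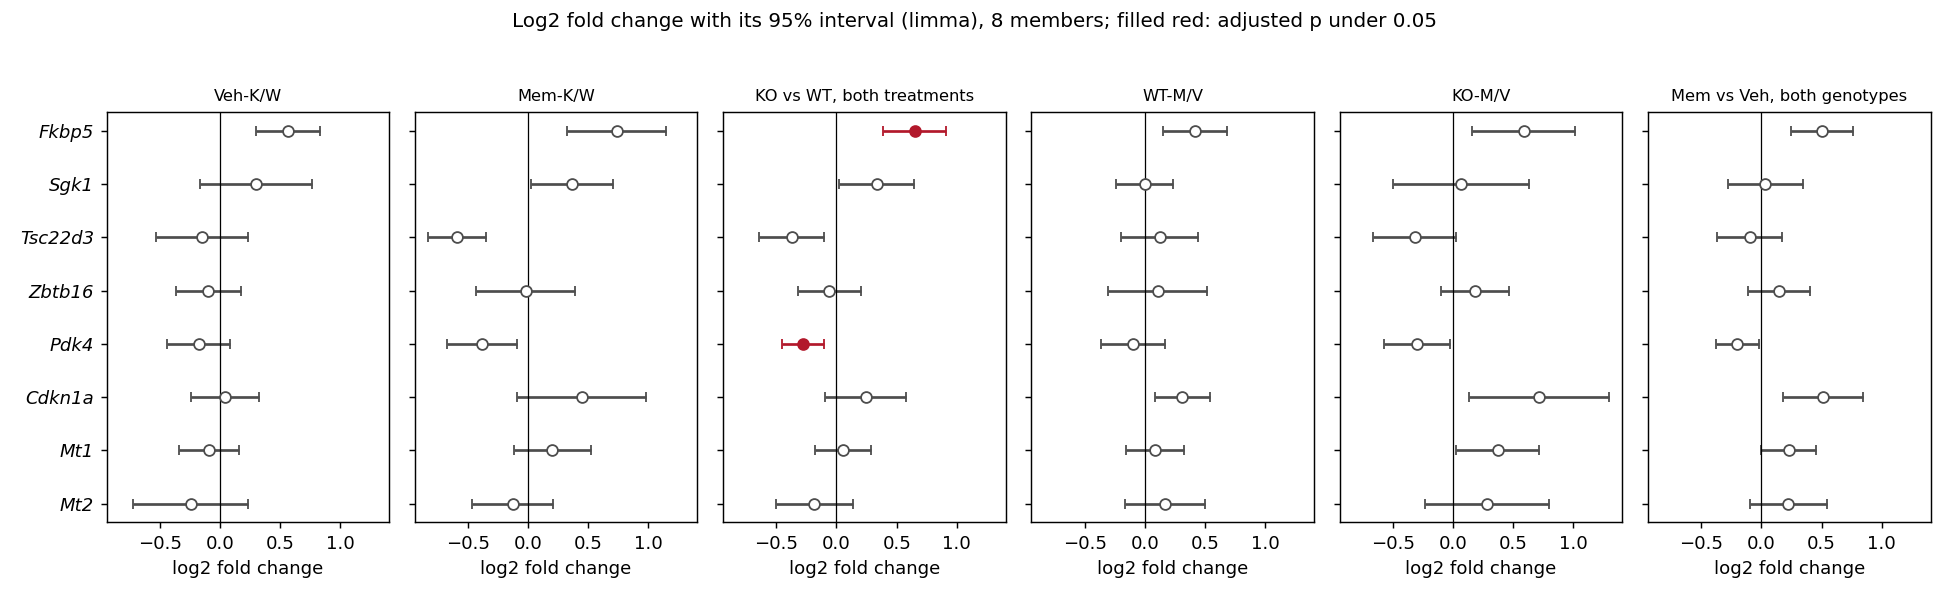
Log2 fold change (horizontal axis) with its 95% interval for the 8 members that were tested, in 4 comparisons of 3 against 3 mice and the genotype and memantine averages over 12 mice. Filled red points are the calls at an adjusted p under 0.05 (limma), which are Fkbp5 at 0.65 and Pdk4 at -0.28 for KO against WT over both treatments.

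Cdkn1a (chr17:29090976-29100727, plus strand) encodes the cell cycle inhibitor p21. It stood at 351, 363 and 412 normalized counts in WT-Veh mice, at 447, 448 and 500 in WT-Mem mice, at 369, 458 and 338 in KO-Veh mice, and at 982, 607 and 425 in KO-Mem mice. The WT-Mem mice lay above the WT-Veh mice, and the KO-Mem mice reached from within the KO-Veh range to more than any other mouse. Memantine against vehicle gave 0.51 over both genotypes (log2, SE 0.16, limma adjusted p = 0.421, exact permutation p = 0.01), with 0.31 in WT mice (interval 0.08 to 0.54) and 0.71 in KO mice (interval 0.13 to 1.30), and none of these passed the adjusted threshold. The KO-Mem mean was 671 with all 3 mice and 516 without replicate 1. The genotype difference was 0.24 (log2, interval -0.09 to 0.58, limma adjusted p = 0.318).

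The metallothionein genes Mt1 (chr8:94179082-94180327) and Mt2 (chr8:94172664-94173568) are neighbours on the plus strand, and since their transcripts are alike, the estimate of each may include reads of the other. Mt1 stood at 4725, 4371 and 5627 normalized counts in WT-Veh mice, at 4855, 4804 and 5915 in WT-Mem mice, at 4181, 5407 and 4261 in KO-Veh mice, and at 7530, 5755 and 4828 in KO-Mem mice. Mt2 stood at 2022, 1710 and 2519, at 2392, 1931 and 2681, at 1311, 2574 and 1561, and at 2678, 1885 and 1873 normalized counts in the same order. All groups overlapped for both genes. In KO mice the memantine difference of Mt1 was 0.37 (log2, interval 0.03 to 0.72, limma adjusted p = 0.555), and over both genotypes Mt1 gave 0.23 and Mt2 0.23 (adjusted p of both above the threshold, exact permutation p = 0.125 and 0.27). The genotype differences were 0.05 for Mt1 and -0.19 for Mt2 (log2, exact permutation p = 0.705 and 0.33).

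Hif3a (chr7:17031507-17062427, minus strand) encodes a subunit of the hypoxia-inducible factor family, of which some isoforms oppose the other members. It stood at 106, 108 and 230 normalized counts in WT-Veh mice, at 232, 282 and 134 in WT-Mem mice, at 244, 402 and 502 in KO-Veh mice, and at 1295, 440 and 225 in KO-Mem mice. The KO-Veh mice lay above the WT-Veh mice, which the choice of the gene used, while KO-Mem replicate 3 lay within the WT range. The group means were 148 ± 70.9, 216 ± 75.2, 383 ± 130 and 653 ± 566 (SD, n = 3), and the KO-Mem mean was 333 without replicate 1, below that of the KO-Veh mice. The order of KO-Mem and KO-Veh means thus rested on that mouse.

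Lcn2 (chr2:32384633-32388252, minus strand) encodes a secreted protein that binds bacterial siderophores and rises in astrocytes and endothelium during inflammation, and it is also stored in neutrophil granules. It stood at 6.78, 8.48 and 10.2 normalized counts in WT-Veh mice, at 16.4, 9.82 and 7.14 in WT-Mem mice, at 5.07, 3.49 and 19.5 in KO-Veh mice, and at 46.6, 48.8 and 44.8 in KO-Mem mice. The KO-Mem values lay close together (CV 4.27%) and above all other mice, the pattern for which the gene was picked. It had a mean of at least 10, the filter on low values, only in fits that included KO-Mem mice or the pair of WT-Mem and KO-Veh mice. Of 10 neutrophil markers, 6 were in the table (S100a8, S100a9, Ngp, Ltf, Mmp9 and Mpo), none of them at 0 in every mouse. Their sum, without Lcn2, was 80.8 to 107 in WT-Veh, 57.7 to 97.7 in WT-Mem, 70.3 to 138 in KO-Veh and 95.9 to 337 in KO-Mem mice. The 337 was KO-Mem replicate 3, and the 6 markers did not share a pattern. S100a8, S100a9, Ngp and Mpo were higher in that mouse than in any other (S100a9 at 125 normalized counts), while KO-Mem replicates 1 and 2 lay within the range of the other groups (S100a9 at 9.54 and 7.78). Ltf, the gene of the granule protein lactoferrin, was 10.3, 16.0 and 15.1 normalized counts in KO-Mem replicates 1, 2 and 3 and 2.20 to 11.1 in the other mice, and Mmp9 was 64.9, 84.3 and 81.5 against 34.1 to 81.3. The part of neutrophils in the Lcn2 values was not tested.

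Counted over the 8 members tested, few passed in any comparison. Each 3-against-3 fit used its own mice, comparisons share groups, and a count of groups without overlap includes any gene whose 3 values of 1 group all lie above or below those of the other. In Veh-K/W (KO-Veh against WT-Veh) limma called 0 of 8 members (0.0283% of 17671 genes tested), 1 had an unadjusted p under 0.05 (Fkbp5, higher, where 14.4% of all genes did) and the same 1 did not overlap (20.4% of all genes). In Mem-K/W (KO-Mem against WT-Mem) limma called 0 of 8 (0.068% of 17646 genes), 4 had an unadjusted p under 0.05 (Fkbp5 and Sgk1 higher, Tsc22d3 and Pdk4 lower, where 21% of all genes did) and 3 did not overlap (26.2% of all genes), namely Fkbp5 above and Tsc22d3 and Pdk4 below. In KO-M/V (KO-Mem against KO-Veh) limma called 0 of 8 and 0% of all genes, 4 had an unadjusted p under 0.05 (Fkbp5, Cdkn1a and Mt1 higher, Pdk4 lower, where 8.88% of all genes did) and 2 did not overlap (13.9% of all genes), namely Fkbp5 above and Pdk4 below. In WT-M/V (WT-Mem against WT-Veh) limma called 0 of 8 (0.0114% of 17564 genes), while Fkbp5 and Cdkn1a had an unadjusted p under 0.05 (3.97% of all genes), and these 2 did not overlap (9.34% of all genes). In the KO-Mem against WT-Veh comparison limma called 1 of 8 (3.37% of genes), 5 had an unadjusted p under 0.05 (25.9% of all genes) and 3 did not overlap (31.1% of all genes), with Fkbp5 and Cdkn1a above and Pdk4 below. In the WT-Mem against KO-Veh comparison limma called 0 of 8 (0.0227% of 17648 genes), 0 had an unadjusted p under 0.05 (8.94% of all genes) and 0 did not overlap (14.9% of all genes). Over both treatments 2 of 8 were called by genotype (10.8% of genes), over both genotypes 0 of 8 by memantine (0% of genes, with 3 members and 8.6% of genes at an unadjusted p under 0.05), and 0 of 8 in the interaction (0% of genes, with 0 members and 4.76% of genes at an unadjusted p under 0.05). The median difference of the 8 (log2) was 0.23 for memantine in KO mice and 0.12 for memantine in WT mice, beside 0.00 for all genes in both. Whatever its sign, the median size of the difference over all genes was 0.11 and 0.09 in the same order. In Veh-K/W, in Mem-K/W and for genotype over both treatments the medians of the 8 were -0.09, 0.09 and -0.0023. These medians were not tested.

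Across mice, members varied together to different degrees. KO-Mem replicate 1 had the highest value of 4 members (Hif3a, Fkbp5, Cdkn1a and Mt1) and ranked among the top 3 mice for 8 of 10, and KO-Mem replicate 2 was among the top 3 for 6. KO-Veh replicate 1 was lowest for 3 members (Sgk1, Mt1 and Mt2). Of the 28 pairs of the 8 tested members, 18 had a positive Pearson r over the 12 mice on the log2 scale, 8 had a permutation p of r under 0.05, and after adjustment over all 45 pairs of the 10 members 4 passed by r and 2 by Spearman's rho. That adjustment took in the pairs with Hif3a or Lcn2, so the adjusted p-values depend in part on genes picked for their rise. Cdkn1a and Mt1 had r = 0.909 (rho = 0.853, adjusted permutation p = 0.0027 for r and 0.0274 for rho), with r = 0.786 without the 2 mice farthest from the median of Cdkn1a. Mt1 and Mt2 had r = 0.784 (rho = 0.839, adjusted permutation p = 0.0246 for r and 0.0274 for rho) and 0.755 without 2 mice. Fkbp5 and Cdkn1a had r = 0.809 (rho = 0.573, adjusted permutation p = 0.0248 for r, 0.274 for rho), which was 0.517 without 2 mice. Pairs with Hif3a or Lcn2 are given as a description with no test: Hif3a had r = 0.870 with Fkbp5 (rho = 0.727) and 0.798 with Sgk1 (rho = 0.776), which were 0.717 and 0.751 without 2 mice. Lcn2 and Fkbp5 had r = 0.712 (rho = 0.643), which was 0.424 without KO-Mem replicates 1 and 2.

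These correlations hold differences between the groups as well as differences between mice of a group. In deviations from the group means, Cdkn1a and Mt1 kept r = 0.902, Mt1 and Mt2 had 0.867, Hif3a and Fkbp5 had 0.792, and Hif3a and Sgk1 had 0.749. Fkbp5 and Pdk4 were opposed over all mice (r = -0.730, rho = -0.622, adjusted permutation p = 0.0469 for r and 0.193 for rho) but had r = 0.233 in deviations, so their opposition lay between the groups. The adjusted p of this r lay near the threshold, and an adjustment without the pairs of Hif3a and Lcn2 was not run. Tsc22d3 and Fkbp5, both known glucocorticoid targets, had r = -0.532 over the 12 mice (adjusted permutation p = 0.166) and 0.02 in deviations.

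**Figure D3:**
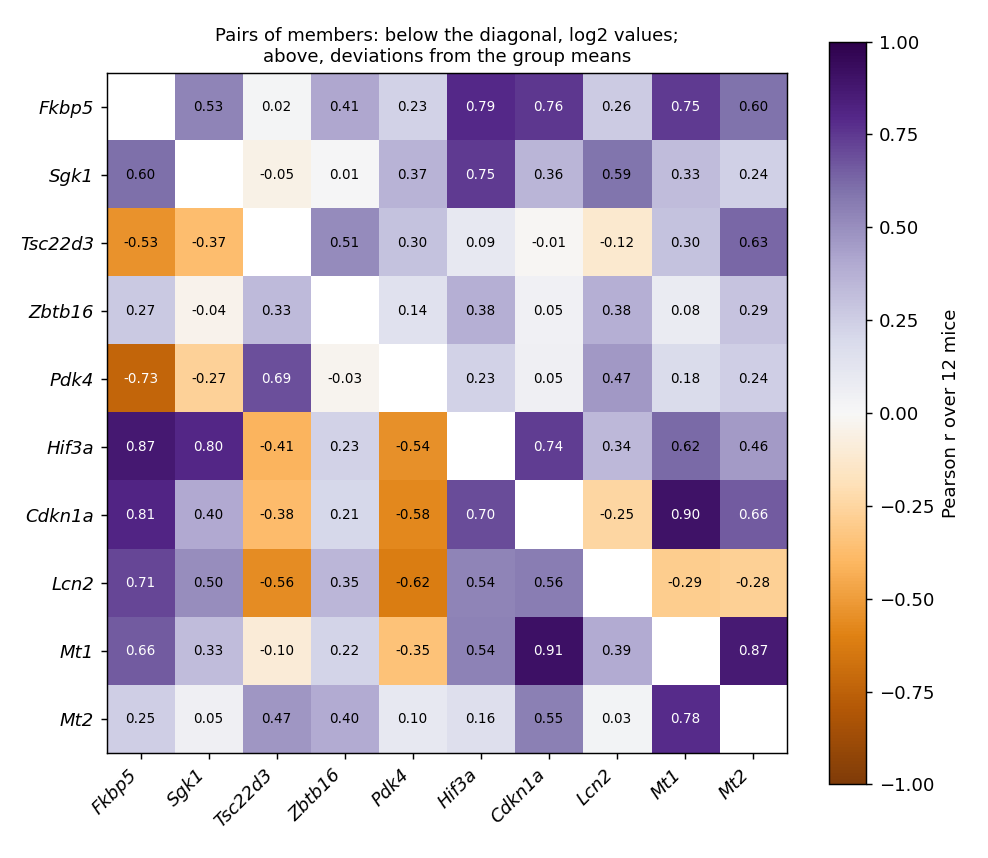
Pearson r for each pair of members over the 12 mice, below the diagonal from log2 values and above the diagonal from deviations from the 4 group means (colour scale from -1 to 1). Cdkn1a and Mt1 are at 0.91 and 0.90, whereas Fkbp5 and Pdk4 are at -0.73 below the diagonal and 0.23 above it.

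**Figure D4:**
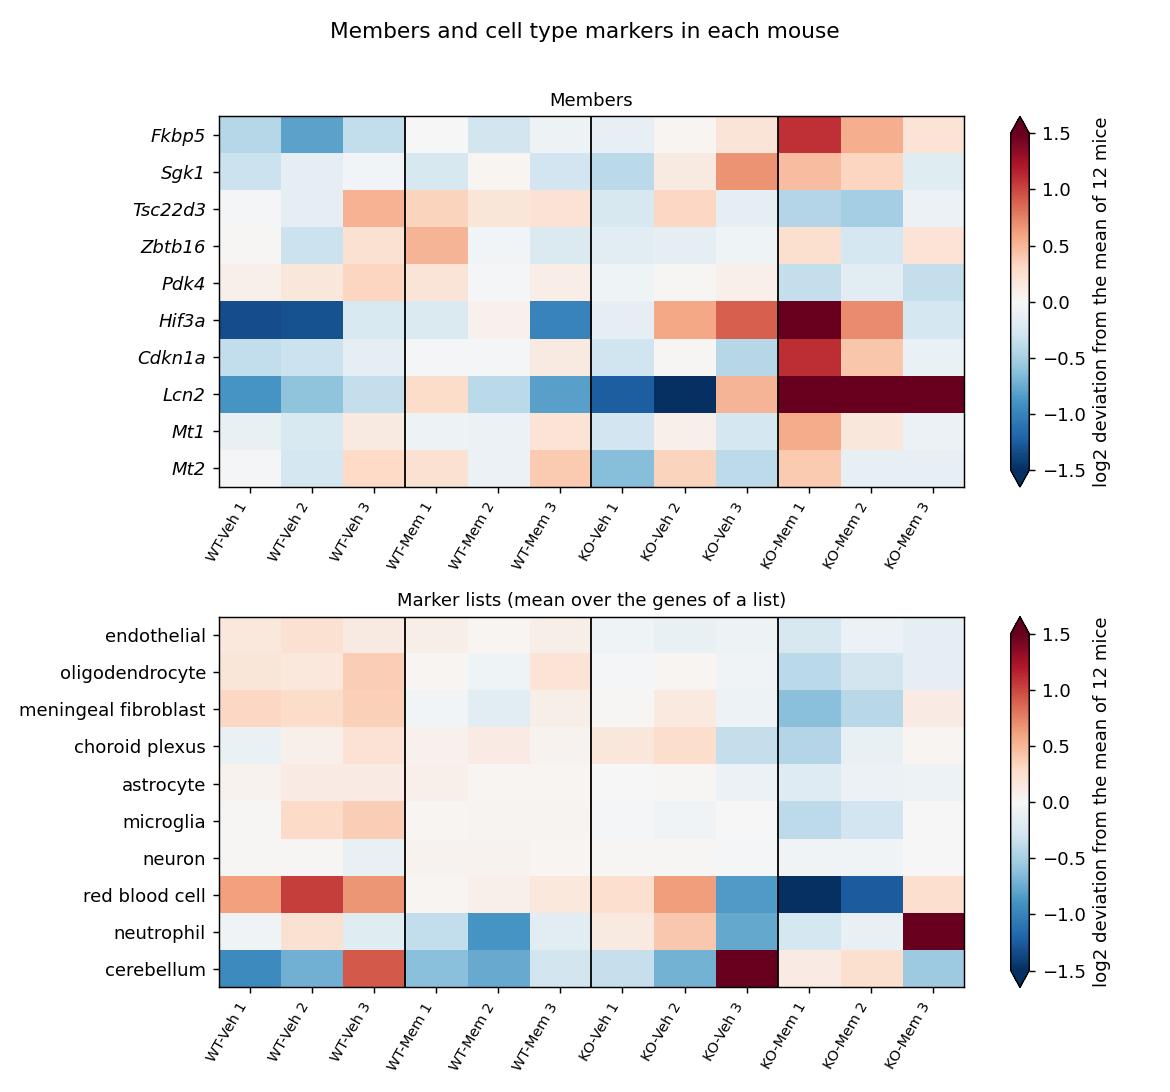
Log2 deviation of each mouse from the mean of 12 mice for the 10 members (upper panel) and, averaged over the genes of a list, for cell type markers (lower panel), with colours limited to -1.5 and 1.5. Red in KO-Mem replicate 1 covers most members, and KO-Veh replicate 3 and KO-Mem replicate 3 stand out in cerebellum and neutrophil markers.

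Among 14232 genes with a mean of at least 50, the genes most like each member in pattern over the 12 mice were taken as a description. The highest of so many correlations over 12 mice is large by selection alone, so these r do not show a shared function. The Fkbp5 pattern was closest to that of Scyl3 (r = 0.965) and of Nr1d1 (r = 0.961), the clock repressor REV-ERB alpha, whose means were 2752 normalized counts in WT-Veh, 2994 in WT-Mem, 3018 in KO-Veh and 3663 in KO-Mem mice. For Hif3a they were Dennd1a (r = 0.953) and Amer3 (0.946), for Cdkn1a Tatdn2 (0.964) and Ociad2 (0.926), and for Sgk1 the iron transporter Slc11a2 (0.903) and 2210406O10Rik (0.891). For Mt2 they were Mfsd2a (0.963), a lipid transporter of the blood-brain barrier, and Nob1 (0.895), and for Mt1 the lysosomal sialidase Neu1 (0.920) and Rxrb (0.917). Tsc22d3 was closest to the elastin gene Eln (0.942) and 1700030J22Rik (0.930), and Pdk4 to Timmdc1 (0.941) and Emcn (0.930), an endothelial sialomucin. Lcn2 was closest to Slc7a6 (0.879) and Zfp335os (0.875), and Zbtb16 to Map3k4 (0.828) and Slc16a14 (0.810), the lowest of the 10.

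Other genes of the same pathways were taken from lists, and counts are for KO against WT mice over both treatments unless stated. Of all genes tested in that comparison 10.8% were called, so a share of a list near it, such as 1 of 20 or 2 of 15, is no result about the list. Of 20 other glucocorticoid-induced genes, 1 was called higher and 0 lower (median log2 0.04, beside 0.00 for all genes). The called gene was Klf15, a glucocorticoid-induced regulator of amino acid and lipid use, at 0.30 (log2, SE 0.08, limma adjusted p = 0.0275), with 497 to 631 normalized counts in WT and 628 to 807 in KO mice. For memantine, 18 of these 20 had a log2 difference above 0 in WT mice (median 0.10) and 17 in KO mice (median 0.09). The medians of all genes were 0.00, limma called 0 of the 20 in either genotype, and the shared direction was not tested. Plin4, picked for its values and given with no test, stood at 1287, 492 and 181 normalized counts in KO-Mem replicates 1, 2 and 3. Its values were 73.3 to 191 in the other mice. Of 11 genes of the receptor machinery, 3 were called lower and 0 higher (median -0.04), while the 3 coregulators Ncoa1, Ncoa2 and Ncor1 were higher at an unadjusted p under 0.05 (log2 0.15, 0.13 and 0.17, limma adjusted p = 0.0548, 0.129 and 0.0530). Fkbp4, the co-chaperone that competes with Fkbp5, fell by 0.30 (SE 0.06, limma adjusted p = 0.0105), with 3226 to 3869 normalized counts in WT and 2645 to 3212 in KO mice. The co-chaperone gene Stip1 fell by 0.30 (limma adjusted p = 0.0116) and the chaperone gene Hsp90ab1 fell by 0.13 (adjusted p = 0.0472), while Hsp90aa1 and Ptges3 gave -0.09 and -0.14 (adjusted p = 0.268 and 0.280). Fkbp4 and Stip1 were also called lower in KO-Mem against WT-Veh mice, at -0.37 and -0.45 (log2, limma adjusted p = 0.0459 and 0.0405). The receptors themselves gave -0.04 for Nr3c1 (glucocorticoid receptor, limma adjusted p = 0.702) and 0.10 for Nr3c2 (mineralocorticoid receptor, adjusted p = 0.292).

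Of 10 genes of the CRH and stress peptide system 8 could be tested, and 1 was called, the CRH receptor gene Crhr1, which fell by 0.35 (log2, SE 0.08, limma adjusted p = 0.0151), with 680 to 775 normalized counts in WT and 438 to 624 in KO mice (list median -0.11). Of 15 hypoxia-inducible factor genes and targets, 2 glycolytic ones were called lower and 0 higher (median -0.04): Pfkfb3 fell by 0.37 (limma adjusted p = 0.0230) and Ldha fell by 0.28 (adjusted p = 0.0252). Of 13 fasting and fatty acid oxidation genes tested, Ppard fell by 0.27 (limma adjusted p = 0.0119) and the coactivator Ppargc1a rose by 0.21 (adjusted p = 0.0326, list median 0.04). The insulin receptor substrate gene Irs2 rose by 0.33 in KO-Mem against WT-Veh mice (limma adjusted p = 0.0420) and gave 0.10 over both treatments (adjusted p = 0.219).

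Of 11 genes tested from a list of Trp53, the gene of p53 itself, and p53 targets apart from Cdkn1a, 3 were called lower and 0 higher (median -0.01). Gadd45a, a growth arrest gene, fell by 0.87 (log2, SE 0.13, limma adjusted p = 0.0043), with 183 to 256 normalized counts in WT and 102 to 165 in KO mice, and it also fell by 1.00 in KO-Mem against WT-Veh mice (adjusted p = 0.0243). Ccng1 fell by 0.29 (adjusted p = 0.0426) and Zmat3 fell by 0.19 (adjusted p = 0.0494). Of 8 metal handling genes, the brain metallothionein Mt3 was called and fell by 0.19 (limma adjusted p = 0.0385, list median 0.01). Of 10 acute phase and NF-kB induced genes tested, Serpina3n, an astrocyte-secreted protease inhibitor, rose by 0.36 (limma adjusted p = 0.0464), with 338 to 428 normalized counts in WT and 402 to 652 in KO mice, and the list median was 0.31. That median was 0.04 in Veh-K/W and 0.25 in Mem-K/W, and it was not tested. Some genes of this list are low, such as Cxcl10 at 4.20 to 35.2 normalized counts. In the comparisons of genotypes under vehicle and under memantine, and of treatments in KO and in WT mice, limma called 0 of the 96 to 98 list genes tested, of which 19, 27, 16 and 7 had an unadjusted p under 0.05, where 14.4%, 21%, 8.88% and 3.97% of all genes did.

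Some markers of other cells also differed between the genotypes over both treatments, in which 10.8% of all genes were called: 6 of 8 oligodendrocyte, 6 of 10 endothelial, 4 of 6 red blood cell, 3 of 8 astrocyte, 2 of 8 meningeal fibroblast, 1 of 8 microglia and 0 of 10 choroid plexus markers were called lower in KO mice and 0 of these higher, with medians (log2) of -0.29, -0.23, -0.81, -0.12, -0.26, -0.23 and -0.15. Of 8 neuron markers 1 was called higher and 0 lower (median 0.01), and of 3 neutrophil and 5 cerebellum markers tested limma called 0, with 1 of each at an unadjusted p under 0.05. Of 8 forebrain markers limma called 0, with 2 lower at an unadjusted p under 0.05. The summed oligodendrocyte value was 305642 to 419686 normalized counts in WT and 246069 to 317196 in KO mice, and that of red blood cells was lowest in KO-Mem replicate 1, at 5627. That mouse was also the highest in Hif3a, Fkbp5, Cdkn1a and Mt1. The part of these cells in the values of the members was not tested.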

How the data were processed

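RNA-Seq was made by the authors from the brain of 12 mice (TruSeq v2 libraries, which do not mark strand, so reads of overlapping antisense genes cannot be told apart). The authors quantified reads with Salmon 1.1.0 on GRCm38 with GC bias correction, imported gene-level values with tximport, and deposited a signal for each of 19312 genes, namely DESeq2-normalized counts that are not whole numbers. The submitters' processing notes give DESeq2 1.26.0 and R 3.6.2. Which annotation release was used, and how genes were filtered, is not given in the sources used here. Whole reads could not be recovered from the values, so the count test planned for raw counts was not run.

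Groups came from the sample labels. Values were log2-transformed after adding a pseudocount of 1 and tested with limma 3.58.1 (lmFit, eBayes with trend, R 4.3.3), two-sided, for every gene averaging at least 10 in the mice of the fit. P-values were adjusted by Benjamini-Hochberg over all genes tested and called at an adjusted p under 0.05. Each pairwise comparison used its own 6 mice. The genotype and memantine averages (additive) and the interaction used 12. Fold changes are on this log2 scale, which understates the change of low genes. Intervals are 95%. Exact permutation tests and correlations (100000 resamples) used scipy 1.17.1. The limma step was tested on simulated data.

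Symbols, positions and exon lengths are from GENCODE M21 (GRCm38), which matched 19295 genes. Promoter windows are from RefSeq. All 10 members, the called genes of each list (or, where none, the 2 with the smallest p), and the 2 genes most like each member were named. The members and the gene lists were chosen with earlier results of these data known. Alternatives were other pseudocounts (0.5, 5), another filter (50) or none, quantile normalization, no variance trend, a replicate block, all 12 mice in one fit, and each mouse left out. Whether replicate numbers pair mice was checked: deviations of same-numbered mice correlated at -0.268 to 0.195, and the labels tie a number to nothing shared, so they were not paired.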

Additional observations from a re-analysis of the deposited data

How the results depend on the processing

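No log2 fold change of a member with an unadjusted p under 0.05 changed sign under the alternatives run. The count of called members was 0 under every alternative in KO-M/V, in Veh-K/W, in the WT-Mem comparisons with WT-Veh and with KO-Veh, in the interaction and in the memantine average. In Mem-K/W it was 0, but 1 with 12 mice in one fit (Fkbp5, adjusted p = 0.0410) and 0 to 4 with 1 mouse left out, the 4 (Fkbp5, Sgk1, Tsc22d3 and Cdkn1a) without KO-Mem replicate 3. In KO-Mem against WT-Veh it was 1, but 0 with no variance trend, 2 with the replicate block (Fkbp5 and Tsc22d3, adjusted p = 0.0195 and 0.0254), 3 with 12 mice in one fit (Fkbp5, Pdk4 and Cdkn1a) and 0 to 4 with 1 mouse left out. For genotype over both treatments it was 2, but 1 with the replicate block, in which Pdk4 had an adjusted p of 0.0601, and 1 to 3 with 1 mouse left out; Fkbp5 passed in all 20 fits of that average and Pdk4 in 9. The replicate block changed no other call of a member, and since the numbers do not pair the mice, a call lost under it is no sign of a smaller difference. The cause of these changes was not tested, beyond the fewer mice of a fit with 1 left out.

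The counts over all genes, from which the percentages come, moved more. Without 1 mouse they ranged from 2 to 53 in Veh-K/W (5 with all mice), 2 to 1911 in Mem-K/W (12), 0 to 97 in KO-M/V (0), 1 to 2490 in KO-Mem against WT-Veh (595) and 694 to 2683 for genotype over both treatments (1907), the highest without KO-Mem replicate 3 in the last 4 and without KO-Veh replicate 2 in the first. Under the other alternatives they ranged from 2 to 5, 4 to 636, 0 to 0, 7 to 2067 and 894 to 1976 in the same order. WT-M/V gave 0 to 3 (2), WT-M/KO-V 0 to 5 (4) and the interaction 0 to 4 (0). Low values limit Lcn2 most, since it stood at 3.49 to 19.5 normalized counts outside the KO-Mem mice.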
